A study of Mus musculus with 8 samples.

Results

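Expression of 10 genes of T cell costimulation from the tumour necrosis factor (TNF) superfamily was followed across CCR2-/- and wild-type CD4+ T cells. They were 6 receptors (Tnfrsf8, Tnfrsf1b, Tnfrsf4, Tnfrsf9, Tnfrsf18 and Cd27) and 4 ligands (Tnfsf8, Tnfsf4, Tnfsf11 and Tnfsf14), taken from a list of names, out of 22180 genes that the arrays measured with a transcript cluster of a single symbol. For each gene the brightest such cluster by its mean over 8 arrays was used, and each of the 10 genes had only 1. All 10 passed the filter on low values, as did 13508 genes in all. The 4 groups held 2 arrays each: CCR2-/- CD45RBlow, wild-type CD45RBlow, CCR2-/- CD45RBhigh and wild-type CD45RBhigh cells. All came from spleens of C57BL/6 mice aged 6 to 8 weeks, were sorted as CD4+CD25- and by their level of CD45RB, and were stimulated in culture by coated antibodies to CD3 and CD28. The labels disagree on the duration, with 48 h in the sample protocols and 2 h in the design text. CCR2 is the receptor of the chemokine CCL2, and the CCR2-/- animals lack it in all cells. CD45RB is an isoform of the phosphatase CD45 that is high on naive and lower on antigen-experienced CD4+ T cells.

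Receptors of the TNF superfamily are drawn together by trimeric ligands and recruit TRAF adaptor proteins to their tails, which activates NF-kappaB and prolongs the survival and division of T cells. Resting T cells already carry CD27, whereas CD30, OX40 and CD137 appear mainly after the T cell receptor has been engaged. GITR and TNFR2 are also abundant on regulatory T cells, and several ligands are made by activated T cells as well as by antigen-presenting cells.

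The values are RMA log2 levels, on which a difference of 1 is a doubling. They ran between 3.07 and 13.92, with array medians between 4.92 and 5.05, and the 2 arrays of a group correlated at 0.984 to 0.994 across clusters. No label gives the animals behind each array, so the p-values here cover only the spread from array to array. Cd4 (11.54 to 11.74) and Cd3e (12.3 to 12.8) lay far above the median of every array. Il2ra, which encodes CD25, lay between 12.2 and 12.5 on all arrays after the stimulation. Ccr2 itself lay between 4.26 and 5.15 on all arrays. It averaged 4.93 in CCR2-/- CD45RBlow and 4.68 in CCR2-/- CD45RBhigh cells. The averages were 4.56 in wild-type CD45RBlow and 4.36 in wild-type CD45RBhigh cells. Its level was thus not lower in CCR2-/- cells and does not check the genotypes. The replicate numbers separated the arrays by Xist, at 4.45 to 5.02 on the replicate 1 arrays and 11.7 to 12.1 on the replicate 2 arrays. They also separated them by Kdm5d, at 8.83 to 9.13 and 7.58 to 7.78. Both are genes of the sex chromosomes, so the 2 arrays of a group did not hold the same animals. No label gives the sex.

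CD45RBlow cells carried more Tnfrsf8, Tnfsf8 and Tnfrsf1b transcript than CD45RBhigh cells, while the other 7 genes did not pass the test. In these bulk samples, a different share of a cell type and a different amount of transcript per cell cannot be told apart. Averaged over both genotypes, 3 of 10 genes rose and none fell at an adjusted p under 0.05 (limma, Benjamini-Hochberg adjustment over 13508 genes). Over all genes tested, 1.1% rose, 1.93% fell and 3.03% changed in either direction. The median difference was 0.28 over the 10 genes and -0.01 over all genes tested. At an unadjusted p under 0.05, 6 of the 10 genes differed, against 18.1% of all genes tested. The 4 CD45RBlow arrays did not overlap the 4 CD45RBhigh arrays for 6 of the 10 genes, 4 of them higher and 2 lower. Over all genes tested that share was 14.3%, with 6.13% higher and 8.13% lower. With the replicate number as a block the same 3 genes rose, against 5.61% of all genes called in either direction. The 10 genes were chosen with earlier results of these data known, so these contrasts with all genes are no test of the set.

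Tnfrsf8 encodes CD30, a receptor of activated T cells and of memory cells. Its log2 level was 8.61 and 8.34 on the CCR2-/- CD45RBlow arrays, 8.63 and 8.55 on the wild-type CD45RBlow arrays, 5.62 and 5.57 on the CCR2-/- CD45RBhigh arrays and 7.62 and 6.42 on the wild-type CD45RBhigh arrays. The CD45RBlow arrays of the 2 genotypes overlapped and lay above all CD45RBhigh arrays, and in CD45RBhigh cells the wild-type arrays lay above the CCR2-/- arrays and far apart from each other. Averaged over genotypes, Tnfrsf8 rose 4.67-fold in CD45RBlow over CD45RBhigh cells (log2 difference 2.22, SE 0.24, 95% confidence interval 1.67 to 2.78, limma adjusted p = 0.0084). Dropping wild-type CD45RBlow replicate 1 ended the call (adjusted p = 0.0581, difference 2.20), and dropping any other single array kept it.

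Tnfsf8 encodes CD30 ligand (CD153), the partner of CD30. It measured 10.75 and 10.45 in CCR2-/- CD45RBlow cells, 10.84 and 10.54 in wild-type CD45RBlow cells, 9.56 and 9.91 in CCR2-/- CD45RBhigh cells and 10.22 and 9.77 in wild-type CD45RBhigh cells. All 4 CD45RBlow arrays lay above all 4 CD45RBhigh arrays, and within each subset the genotypes overlapped. The ligand rose 1.72-fold in CD45RBlow over CD45RBhigh cells (log2 difference 0.78, SE 0.15, interval 0.44 to 1.12, limma adjusted p = 0.0392). This call held only without CCR2-/- CD45RBhigh replicate 2 when arrays were left out in turn. Without any other single array the adjusted p was between 0.0621 and 0.187, with differences of 0.67 to 0.89.

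Tnfrsf1b encodes TNFR2, the receptor through which TNF acts without a death domain. Its level was 8.71 and 8.51 in CCR2-/- CD45RBlow cells, 8.84 and 8.67 in wild-type CD45RBlow cells, 8.34 and 8.27 in CCR2-/- CD45RBhigh cells and 7.90 and 8.02 in wild-type CD45RBhigh cells. The subsets did not overlap, and the wild-type CD45RBhigh arrays were the lowest. Averaged over genotypes, Tnfrsf1b rose 1.46-fold (log2 difference 0.55, SE 0.09, interval 0.34 to 0.75, limma adjusted p = 0.0271). The call was kept without CCR2-/- CD45RBlow replicate 2 or without either CCR2-/- CD45RBhigh array, and lost without any other array, where the adjusted p was 0.0695 to 0.15 and the difference 0.50 to 0.59.

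**Figure D1:**
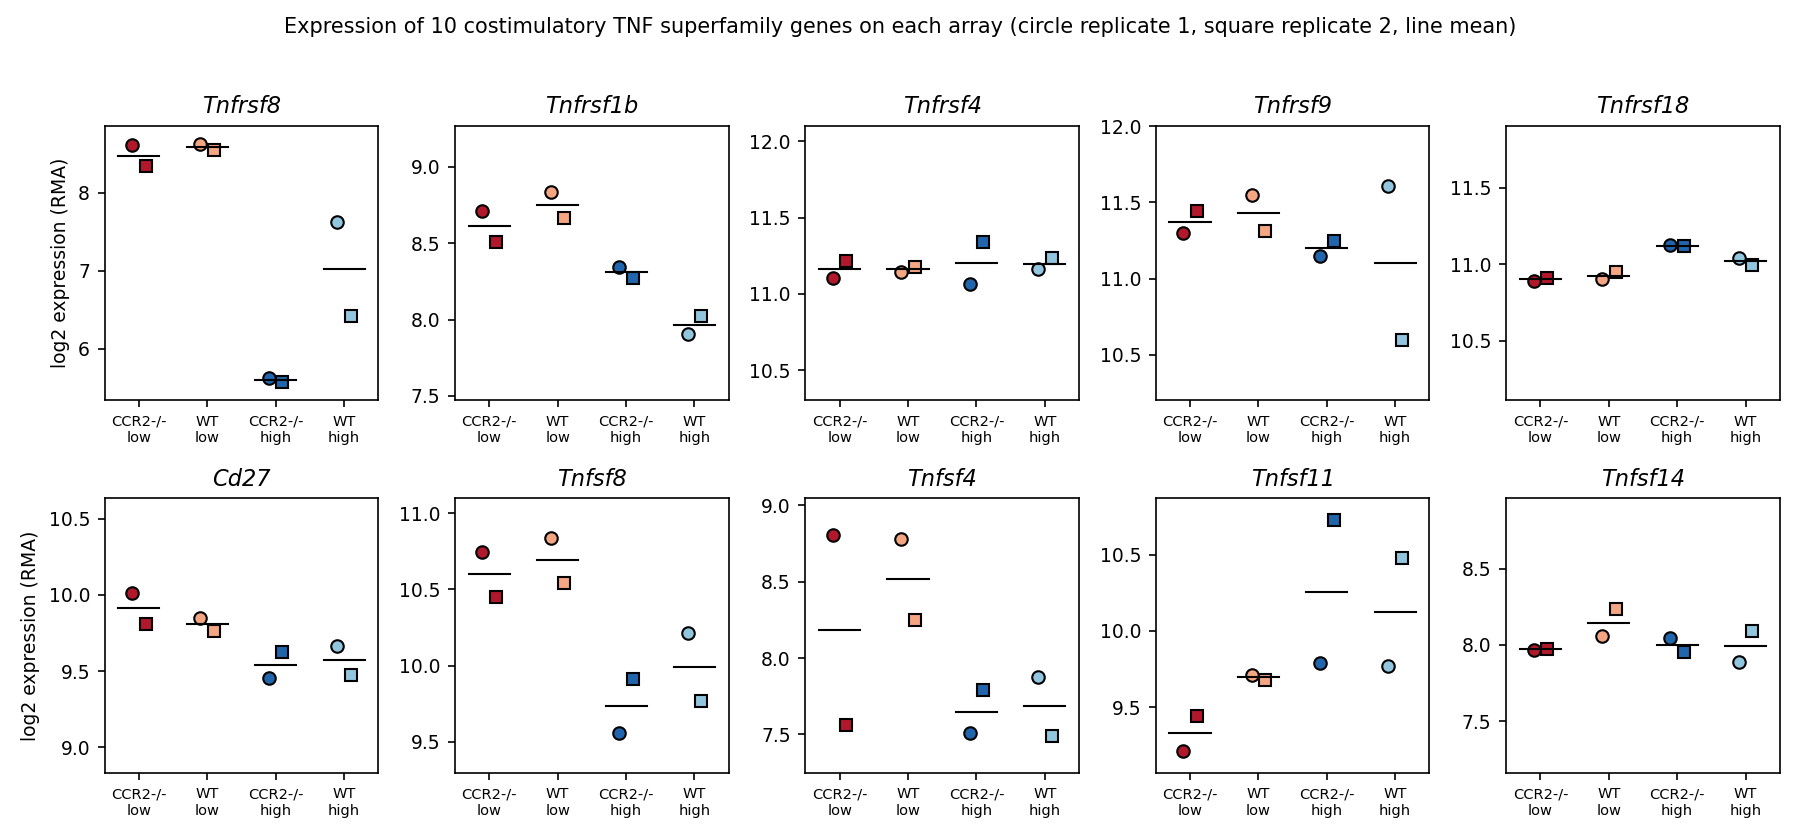
RMA log2 expression (vertical axis) of the 6 receptors and 4 ligands on each array, by group (horizontal axis); circles are replicate 1, squares replicate 2 and lines group means. Panels differ in their axis range. Tnfrsf8 lies between 8.34 and 8.63 on the CD45RBlow arrays and between 5.57 and 7.62 on the CD45RBhigh arrays.

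The start regions of these 3 genes are given because they rose together and because Tnfrsf1b is the protein-coding neighbour of Tnfrsf8 on chromosome 4. They are RefSeq promoters of build GRCm38.p6, running 250 bases before to 50 after the gene start, all on the minus strand and written 5′ to 3′. Tnfrsf8 lies at chr4:145315115-145315414, Tnfsf8 at chr4:63861235-63861534 and Tnfrsf1b at chr4:145246821-145247120. Capitals mark matches on either strand to the motifs of AP-1 (TGANTCA), NFAT (TGGAAA), Sp1 (GGGCGG) and the degenerate NF-kappaB consensus, which were picked with the values known.
Tnfrsf8: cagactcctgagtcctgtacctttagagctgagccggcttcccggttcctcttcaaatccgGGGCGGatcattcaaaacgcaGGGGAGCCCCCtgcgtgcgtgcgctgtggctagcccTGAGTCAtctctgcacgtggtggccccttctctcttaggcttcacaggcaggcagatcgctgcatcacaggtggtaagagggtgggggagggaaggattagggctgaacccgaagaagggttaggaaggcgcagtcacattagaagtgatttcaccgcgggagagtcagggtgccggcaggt
Tnfsf8: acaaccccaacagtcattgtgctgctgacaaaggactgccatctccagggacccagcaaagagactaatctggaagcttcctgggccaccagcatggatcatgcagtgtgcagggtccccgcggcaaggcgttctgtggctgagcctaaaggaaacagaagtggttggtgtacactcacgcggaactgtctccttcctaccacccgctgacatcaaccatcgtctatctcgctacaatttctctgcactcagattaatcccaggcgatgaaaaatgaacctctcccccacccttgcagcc
Tnfrsf1b: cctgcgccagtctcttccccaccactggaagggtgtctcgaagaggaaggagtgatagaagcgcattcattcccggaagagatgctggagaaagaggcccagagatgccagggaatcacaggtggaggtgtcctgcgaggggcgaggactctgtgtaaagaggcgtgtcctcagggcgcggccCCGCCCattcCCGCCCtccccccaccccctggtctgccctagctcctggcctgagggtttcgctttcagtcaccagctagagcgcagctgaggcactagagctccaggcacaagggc
The Tnfrsf8 promoter held 1 AP-1 match, 1 Sp1 match and 2 NF-kappaB matches that overlap each other, with no other overlap in these windows. The Tnfrsf1b promoter held 2 Sp1 matches on its reverse strand, and the Tnfsf8 window held no match. Among 32851 mouse promoters of the same length, 7.81% held an AP-1, 8.46% an NF-kappaB, 21.4% an NFAT and 35.7% an Sp1 match. The table held 10 promoters for 9 of the 10 genes, with 2 for Tnfrsf9 and Tnfsf4 not matched. AP-1, NFAT and Sp1 matches stood in 3 of the 10 promoters each, and NF-kappaB matches in 2, those of Tnfrsf8 and the second of Tnfrsf9. Of the costimulatory genes, 6 lie on chromosome 4, where Tnfrsf4 and Tnfrsf18 are also next to each other.

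Of the receptors that did not pass, CD27 was the nearest to the threshold. Cd27, which encodes a receptor carried by naive T cells and engaged by CD70, measured 10.02 and 9.81 in CCR2-/- CD45RBlow cells, 9.85 and 9.76 in wild-type CD45RBlow cells, 9.45 and 9.62 in CCR2-/- CD45RBhigh cells and 9.67 and 9.48 in wild-type CD45RBhigh cells. The subsets did not overlap, yet the log2 difference of 0.30 had an interval of 0.09 to 0.52 and an adjusted p of 0.136 by limma. Tnfrsf18, which encodes GITR, was at 10.89 and 10.91 in CCR2-/- CD45RBlow cells, 10.90 and 10.95 in wild-type CD45RBlow cells, 11.12 and 11.12 in CCR2-/- CD45RBhigh cells and 11.04 and 11.00 in wild-type CD45RBhigh cells. All CD45RBlow arrays were below all CD45RBhigh arrays by a small margin (log2 difference -0.16, interval -0.32 to 0.00, adjusted p = 0.291).

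OX40 and CD137, both induced on activated T cells, did not pass. Tnfrsf4, which encodes OX40, lay between 11.06 and 11.34 on all 8 arrays, with overlapping groups throughout and a log2 difference of -0.04 between the subsets (interval -0.25 to 0.17, limma adjusted p = 0.877). Tnfrsf9, which encodes CD137, measured 11.30 and 11.45 in CCR2-/- CD45RBlow cells, 11.55 and 11.32 in wild-type CD45RBlow cells, 11.15 and 11.24 in CCR2-/- CD45RBhigh cells and 11.61 and 10.60 in wild-type CD45RBhigh cells. The 2 wild-type CD45RBhigh arrays held both the highest and the lowest Tnfrsf9 value, with replicate 1 the higher, as for Tnfrsf8. Its subset difference was 0.25 (interval -0.23 to 0.73, limma adjusted p = 0.597).

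Among the other ligands, Tnfsf11 and Tnfsf4 had the larger differences, in opposite directions, and neither passed. Tnfsf11 encodes RANKL, the osteoclast differentiation factor that activated T cells also make. It measured 9.22 and 9.44 in CCR2-/- CD45RBlow cells, 9.71 and 9.68 in wild-type CD45RBlow cells, 9.79 and 10.73 in CCR2-/- CD45RBhigh cells and 9.77 and 10.48 in wild-type CD45RBhigh cells. All CD45RBlow arrays were below all CD45RBhigh arrays, and in CD45RBhigh cells the replicate 2 arrays were the higher in both genotypes. The log2 difference was -0.68 (interval -1.22 to -0.14, limma adjusted p = 0.175, and 0.0645 with the replicate number as a block). Without CCR2-/- CD45RBhigh replicate 1 the difference was -0.91 and passed (adjusted p = 0.048).

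Tnfsf4 encodes OX40 ligand, which antigen-presenting cells and some activated T cells carry. Its level was 8.81 and 7.56 in CCR2-/- CD45RBlow cells, 8.78 and 8.25 in wild-type CD45RBlow cells, 7.51 and 7.79 in CCR2-/- CD45RBhigh cells and 7.88 and 7.49 in wild-type CD45RBhigh cells. The CCR2-/- CD45RBlow arrays were the farthest apart, and the second of them overlapped both CD45RBhigh groups. The log2 difference of 0.68 (interval 0.05 to 1.32) did not pass (limma adjusted p = 0.241). Tnfsf14 encodes LIGHT, which binds HVEM and the lymphotoxin beta receptor. It stayed between 7.89 and 8.23 on all arrays, with a subset difference of 0.06 (interval -0.14 to 0.27, limma adjusted p = 0.784).

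The subset difference was also read within each genotype. In CCR2-/- cells, Tnfrsf8 was the only gene of the 10 to pass, against 0.333% of all genes tested (1.45% with the replicate block, where it passed too). It rose 7.36-fold in CCR2-/- CD45RBlow over CCR2-/- CD45RBhigh cells (log2 difference 2.88, interval 2.09 to 3.67, limma adjusted p = 0.0295). The call was lost without any 1 of the arrays of these groups or of the wild-type CD45RBlow group, at adjusted p of 0.0508 to 0.236, while the difference stayed between 2.75 and 3.02. Tnfsf8 differed by 0.86 (adjusted p = 0.154) and Tnfrsf1b by 0.30 (adjusted p = 0.38) in CCR2-/- cells.

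In wild-type cells none of the 10 genes passed, against 0.0888% of all genes tested. At an unadjusted p under 0.05, 3 of the 10 did, against 9.22% of all genes. Tnfrsf8 differed by 1.57 (limma adjusted p = 0.201), Tnfsf8 by 0.70 (adjusted p = 0.33) and Tnfrsf1b by 0.79 (interval 0.50 to 1.08, adjusted p = 0.0982). With the replicate number as a block, Tnfrsf1b passed in wild-type cells (adjusted p = 0.0453), where 0.77% of all genes did. Without wild-type CD45RBhigh replicate 1, the array on which Tnfrsf8 was at 7.62, the Tnfrsf8 difference in wild-type cells was 2.17 and passed (adjusted p = 0.0241).

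**Figure D2:**
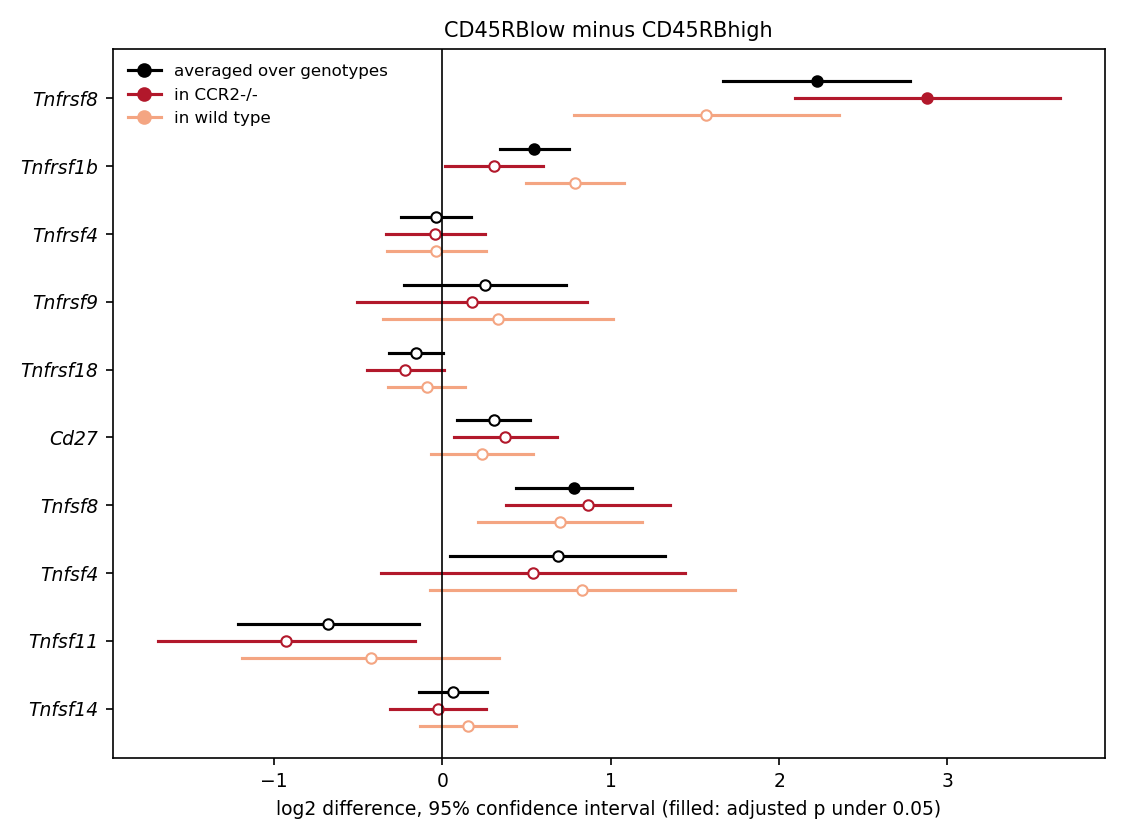
Log2 difference of CD45RBlow minus CD45RBhigh (horizontal axis) for each gene, averaged over genotypes (black), in CCR2-/- cells (red) and in wild-type cells (orange); bars are 95% confidence intervals and filled points have an adjusted p under 0.05. Averaged over genotypes, Tnfrsf8 (2.22), Tnfsf8 (0.78) and Tnfrsf1b (0.55) are filled, and in CCR2-/- cells only Tnfrsf8 (2.88) is.

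The genotypes were compared within each subset. No gene of the 10, and 0.0% of all genes tested, passed in CD45RBlow cells, in CD45RBhigh cells, averaged over both or for the interaction, which is the subset difference in CCR2-/- minus that in wild-type cells. At an unadjusted p under 0.05, none of the 10 differed in CD45RBlow cells, 2 in CD45RBhigh cells, 1 averaged over subsets (Tnfrsf8, log2 difference -0.77) and 2 for the interaction (Tnfrsf8 and Tnfrsf1b). The shares over all genes at that level were 2.21% in CD45RBlow cells, 2.62% in CD45RBhigh cells, 3.86% averaged over subsets and 1.18% for the interaction.

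The 2 genes in CD45RBhigh cells were Tnfrsf8 and Tnfrsf1b, with opposite signs. Tnfrsf8 averaged 5.59 ± 0.04 in CCR2-/- CD45RBhigh cells and 7.02 ± 0.85 in wild-type CD45RBhigh cells (mean ± SD of the 2 arrays). The log2 difference was -1.43 (interval -2.21 to -0.64, limma adjusted p = 1.0). In CD45RBlow cells it averaged 8.47 ± 0.19 in CCR2-/- and 8.59 ± 0.06 in wild-type cells, a difference of -0.11. The interaction was 1.31 (interval 0.20 to 2.43, adjusted p = 1.0). Tnfrsf1b averaged 8.31 ± 0.05 in CCR2-/- CD45RBhigh cells and 7.96 ± 0.08 in wild-type CD45RBhigh cells, a log2 difference of 0.35 with an adjusted p of 1.0 by limma. In CD45RBlow cells the Tnfrsf1b difference was -0.14, and its interaction was -0.49 (interval -0.90 to -0.07, adjusted p = 1.0).

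**Figure D3:**
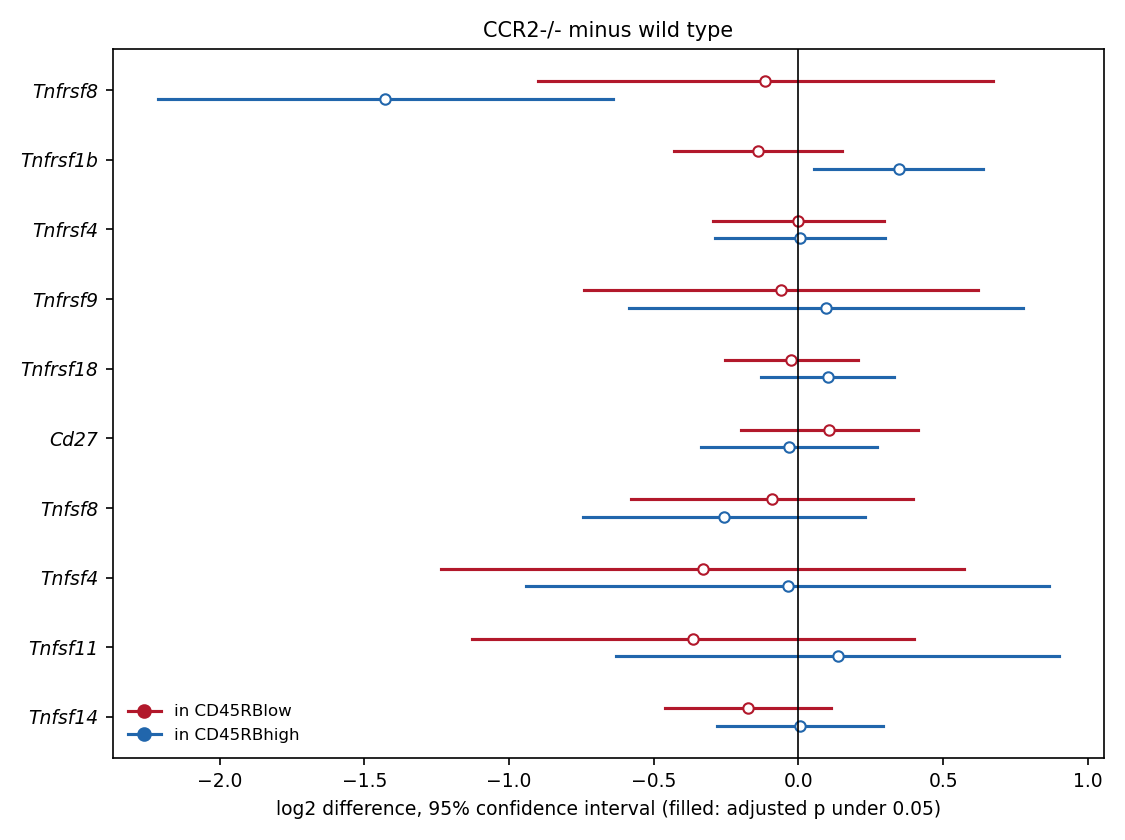
Log2 difference of CCR2-/- minus wild type (horizontal axis) for each gene in CD45RBlow (red) and CD45RBhigh (blue) cells; bars are 95% confidence intervals and an open point did not pass the adjusted threshold. All points are open, and the interval of Tnfrsf8 in CD45RBhigh cells, -2.21 to -0.64, lies below 0.

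Tnfrsf8 and Tnfsf8, which pair with each other, both passed between the subsets, as given above. Partners of the costimulatory genes that are not themselves in that set did not pass where they were tested. Of 9 such partners, 6 passed the filter on low values and were tested. Of these, 0 changed by limma, against 3.03% of all genes tested. At an unadjusted p under 0.05 the count was 0, against 18.1%, and with the replicate block 0, against 5.61%. With so few genes, counts of 0 do not set the partners apart from all genes tested. Tnf, which engages TNFR2, differed by 0.16 (adjusted p = 0.694), and Lta, which encodes lymphotoxin alpha, by -0.10 (adjusted p = 0.84). Tnfrsf14, encoding the LIGHT receptor HVEM, differed by -0.07 (adjusted p = 0.793), and Ltbr, encoding its other receptor, by 0.20 (adjusted p = 0.312). Tnfsf9, encoding the ligand of CD137, differed by -0.25 (adjusted p = 0.352), and Cd70, encoding that of CD27, by -0.20 (adjusted p = 0.423). Tnfsf18, which encodes the GITR ligand, and Tnfrsf11a and Tnfrsf11b, which encode RANK and its decoy osteoprotegerin, stayed below the filter, at 3.93 to 4.16, 3.89 to 4.13 and 4.20 to 4.58.

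Elsewhere in the superfamily, Fas and Fasl fell and Tnfsf10 rose in CD45RBlow over CD45RBhigh cells, where 1.93% of all genes tested fell and 1.1% rose. Of 22 other receptors, which include 4 of the partners, 16 were tested and only Fas, which encodes a death receptor, passed. Fas lay between 8.31 and 8.59 on the CD45RBlow arrays and between 9.12 and 9.21 on the CD45RBhigh arrays, without overlap, and fell to 0.604 of the CD45RBhigh level (log2 difference -0.73, limma adjusted p = 0.0106). Of 14 other ligands, 9 were tested and 2 passed. Fasl, encoding the ligand of Fas, was between 6.91 and 7.43 in CD45RBlow and between 8.11 and 8.34 in CD45RBhigh cells, and fell by 1.10 on the log2 scale (adjusted p = 0.0152). Tnfsf10, which encodes the death ligand TRAIL, was between 6.33 and 6.65 in CD45RBlow and between 5.88 and 5.98 in CD45RBhigh cells and rose by 0.57 (adjusted p = 0.0303). Tnfrsf26, encoding a mouse receptor of the superfamily, differed by 0.93 and passed only with the replicate block (adjusted p = 0.101 without and 0.0116 with it). Tnfrsf21, encoding another receptor, differed by 0.37 and missed the threshold (limma adjusted p = 0.0656). It passed only with a second quantile normalization (0.0463). Tnfsf12 and Tnfsf13 were not analysed here.

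Of 26 genes of TRAF and NF-kappaB signalling, 22 were tested, 2 fell and none rose, against 1.93% and 1.1% of all genes tested. Traf1 encodes an adaptor bound by CD30, TNFR2 and other receptors of the superfamily. It lay between 8.82 and 9.03 on the CD45RBlow arrays and between 9.61 and 10.10 on the CD45RBhigh arrays, and fell by 0.87 on the log2 scale (limma adjusted p = 0.0167). Traf5, an adaptor of CD27, CD30 and OX40, was between 6.68 and 7.02 in CD45RBlow cells and between 7.13 and 7.75 in CD45RBhigh cells, and fell by 0.72 (adjusted p = 0.0413). Neither adaptor overlapped between the subsets, and 8.13% of all genes tested were likewise lower without overlap. Nfkb2, encoding the precursor subunit of the alternative NF-kappaB pathway, had a log2 difference of -0.78, which missed the threshold (adjusted p = 0.0555). It passed with the replicate block (0.0136), without CCR2-/- CD45RBhigh replicate 1 (0.0236) and with the stricter filter, median centring, trend and robust moderation or array weights (0.038 to 0.0492). Traf3, Ripk1, Chuk and Nfkb1 were not analysed here. The median difference was -0.09 for the partners, -0.04 for the other receptors, -0.19 for the other ligands and -0.10 for the signalling genes, against 0.28 for the 10 genes.

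These calls lost the threshold without some single arrays. Dropping wild-type CD45RBlow replicate 1 ended the call of Fas (adjusted p = 0.0761). Fasl was lost without that array (0.0773), without CCR2-/- CD45RBlow replicate 1 (0.0505) or without wild-type CD45RBhigh replicate 1 (0.0583). Traf1 was lost without CCR2-/- CD45RBlow replicate 1, either wild-type CD45RBlow array or wild-type CD45RBhigh replicate 1, at adjusted p of 0.0604 to 0.0858. Tnfsf10 was lost without any 1 of the CD45RBlow or wild-type CD45RBhigh arrays, at 0.0511 to 0.115, and Traf5 without any array but wild-type CD45RBhigh replicate 1, at 0.0536 to 0.195, and also with no filter on low values (0.054). Within either genotype, none of the genes on these 4 lists passed with all arrays at the settings above. Fas passed in wild-type cells with array weights (adjusted p = 0.0255), and Traf1 passed in CCR2-/- cells with median centring (0.0392) or without CCR2-/- CD45RBhigh replicate 1 (0.0482). With the replicate block, Fas fell in wild-type cells (-0.80, adjusted p = 0.0483). In CCR2-/- cells Fasl (-1.14, 0.0474), Traf1 (-1.01, 0.0466) and Nfkb2 (-0.93, 0.0474) then fell and Tnfrsf26 rose (1.17, 0.0344).

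**Figure D4:**
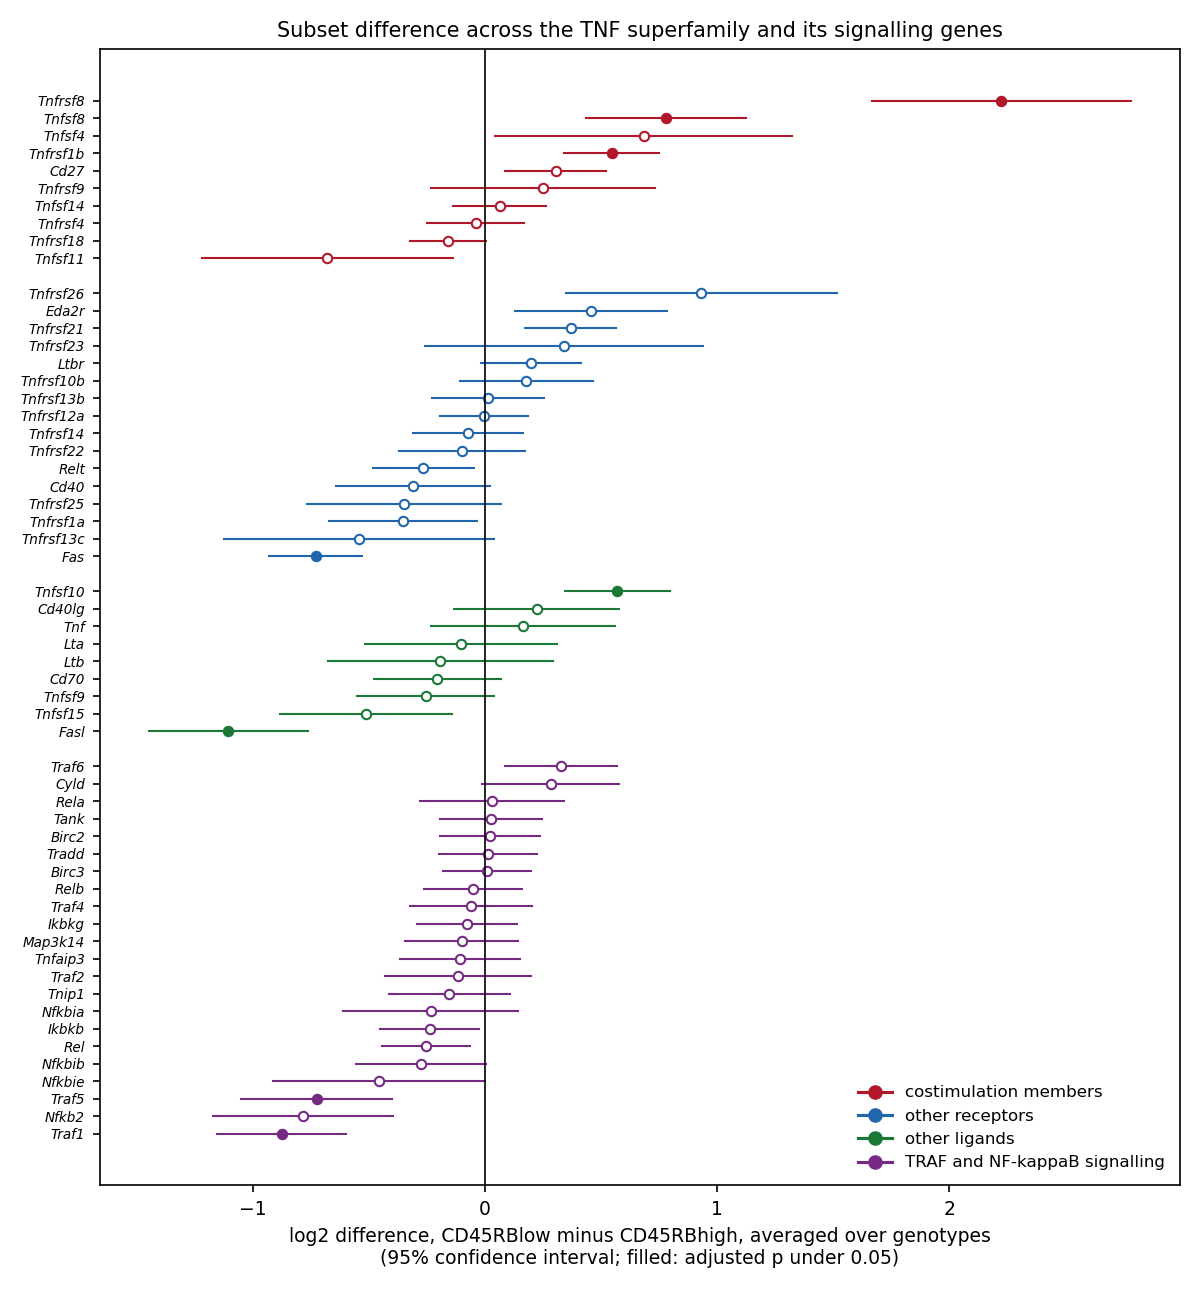
Log2 difference of CD45RBlow minus CD45RBhigh averaged over genotypes (horizontal axis) for the 10 costimulatory genes (red), the tested other receptors (blue), other ligands (green) and TRAF and NF-kappaB signalling genes (purple), sorted within each group; bars are 95% confidence intervals and filled points have an adjusted p under 0.05. Tnfrsf8 at 2.22 lies farthest to the right, and Fasl at -1.10 farthest to the left.

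Genes with an array-to-array pattern most like that of the 3 called genes were found by the root mean square difference over 8 arrays, after each gene was centred on its own mean and without scaling, so that only genes of like amplitude can be near. They were picked for likeness, so their subset differences are no further result. For Tnfrsf8, whose own root mean square deviation was 1.26, they were Il24 (0.19), Gpm6b (0.32), Lilrb4a (0.39), Ahr (0.42) and S100a6 (0.46). Il24 encodes a cytokine of the interleukin-10 family, and it too was lowest on both CCR2-/- CD45RBhigh arrays (-1.67 and -1.69 relative to its mean) and differed between the wild-type CD45RBhigh arrays (0.25 and -1.12). For Tnfrsf1b, with a deviation of 0.31, they were Nek6 (0.09), Osbpl3 (0.12), Ncbp2 (0.13), Ints4 (0.13) and Maged1 (0.14). For Tnfsf8, with 0.44, they were Ryk (0.13), Phactr2 (0.14), Cd5l (0.14), Pdzk1ip1 (0.15) and Lamc1 (0.15).

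**Figure D5:**
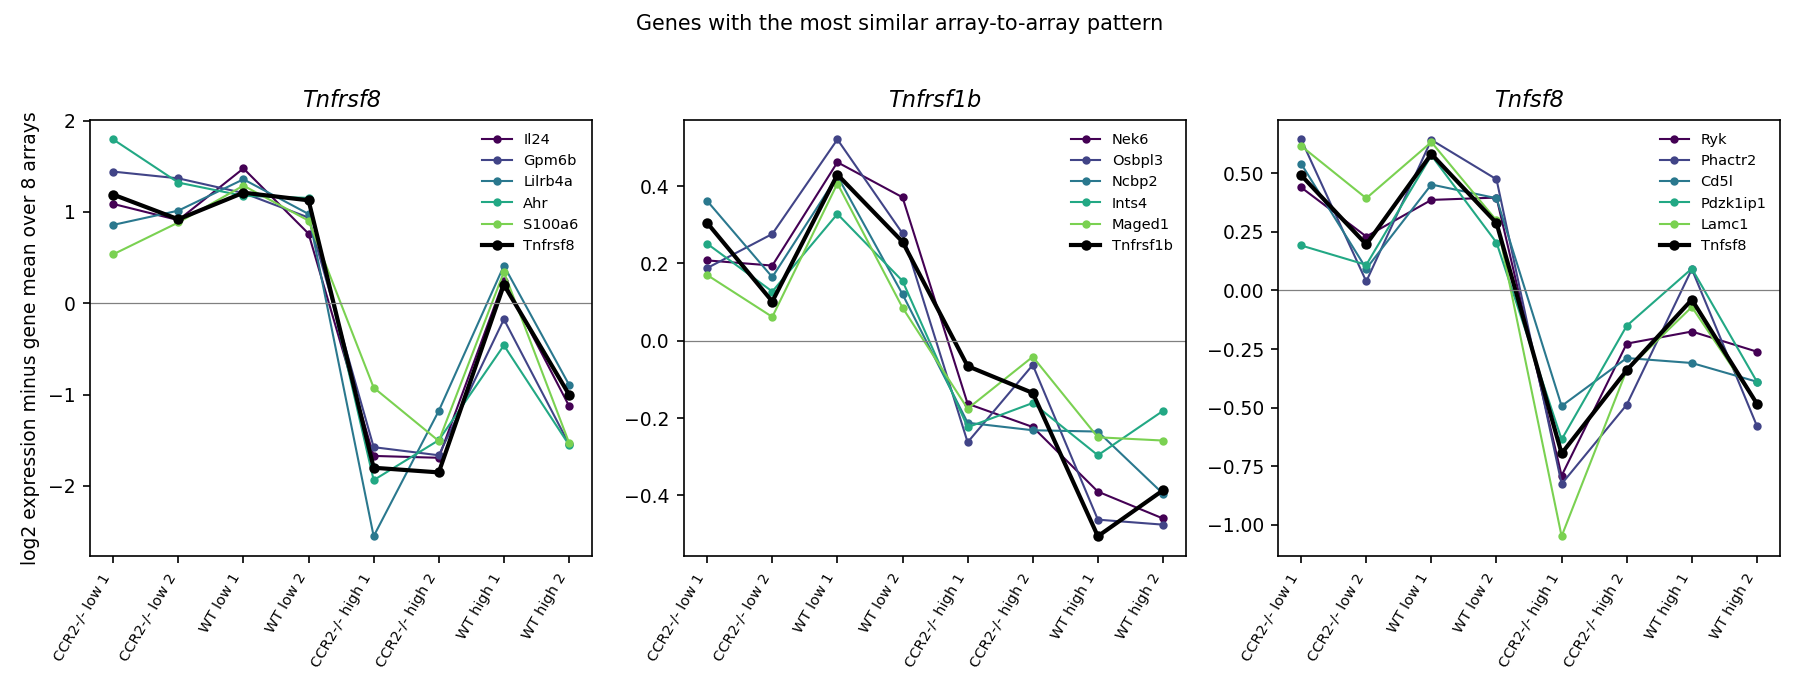
Log2 expression minus each gene's mean over 8 arrays (vertical axis) on each array (horizontal axis) for Tnfrsf8, Tnfrsf1b and Tnfsf8 (black) and the 5 genes nearest to each (coloured). On wild-type CD45RBhigh replicate 1 and 2, Il24 stands at 0.25 and -1.12, following the gap between these arrays in Tnfrsf8.

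Markers of regulatory T cells moved with the subsets. Of 6 such genes, 4 rose in CD45RBlow over CD45RBhigh cells, against 1.1% of all genes tested. Foxp3 led them (log2 difference 3.05, limma adjusted p = 0.0063), while Il2ra differed by 0.10 (adjusted p = 0.591). Foxp3 and Ikzf2 kept their calls under all alternatives run. Ctla4 (adjusted p = 0.0488) lost its call without any 1 array other than wild-type CD45RBhigh replicate 1, and Gpr83 (0.0487) without any 1 array other than CCR2-/- CD45RBlow replicate 2 or CCR2-/- CD45RBhigh replicate 1, at adjusted p of up to 0.214 and 0.213. Both also lost it with no filter (0.0679), and Ctla4 with array weights (0.0667). Foxp3 measured 9.11 and 7.87 in CCR2-/- CD45RBlow cells, 9.14 and 8.44 in wild-type CD45RBlow cells, 5.88 and 5.31 in CCR2-/- CD45RBhigh cells and 5.37 and 5.79 in wild-type CD45RBhigh cells. The log2 of the summed linear levels of the 6, of which Il2ra made up 76.7% to 94.0%, was 12.64 to 12.83 in CD45RBlow and 12.34 to 12.61 in CD45RBhigh cells.

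Of 6 CD4 T cell markers, only Trat1 changed, against 3.03% of all genes tested. It was lower in CD45RBlow cells by limma (log2 difference -1.92, adjusted p = 0.015). That call was lost without replicate 1 of the CCR2-/- CD45RBlow cells (0.0765) or of the wild-type CD45RBlow cells (0.08). Markers of B cells and CD8 T cells, which a sort could let through, had lower sums in CD45RBlow cells. For 6 B cell markers the sum was 9.82 to 10.08 in CD45RBlow and 10.64 to 11.07 in CD45RBhigh cells. Ighm made up at least 87.5% of it on each array. Across all arrays Pax5 lay between 3.95 and 4.44, Cd22 between 3.96 and 5.08 and Ms4a1 between 4.13 and 5.18. Cd79a reached 5.86 and Cd79b 6.85. Of the 5 B cell markers tested, 1 fell, Ighm (log2 difference -1.03, limma adjusted p = 0.0128), against 1.93% of all genes tested. Ighm lost its call without replicate 1 of the CCR2-/- CD45RBlow cells (0.0568) or of the wild-type CD45RBlow cells (0.0773), and its difference was -0.30 with the mean of its clusters (0.307). Without CCR2-/- CD45RBhigh replicate 2, Ms4a1 (0.0293), Cd79a (0.0417) and Cd79b (0.0367) fell as well. Cd8a, a marker of CD8 T cells, lay between 4.39 and 4.91 on all arrays. The sum of the 2 CD8 T cell markers was 7.23 to 7.56 in CD45RBlow and 7.91 to 8.87 in CD45RBhigh cells, of which Cd8b1 made up 83.5% to 93.6%. Neither was called, but Cd8b1 (difference -0.92, adjusted p = 0.0776) passed with the replicate block (0.0467) and without CCR2-/- CD45RBhigh replicate 2 (0.0118). Macrophage and monocyte markers summed to 7.67 to 8.08 in CD45RBlow and 7.82 to 8.86 in CD45RBhigh cells, and 5 of the 6 stayed below the filter. The other, Cd68, passed in the blocked fit (difference -0.53, adjusted p = 0.292 unblocked and 0.0244 blocked). Dendritic cell markers summed to 6.60 to 6.67 in CD45RBlow and 6.67 to 6.88 in CD45RBhigh cells, with 4 of 5 below the filter. NK cell markers summed to 6.23 to 6.34 in CD45RBlow and 6.27 to 6.51 in CD45RBhigh cells, with 2 of 4 below it and neither of the others called. The part of any of these cells in the differences of the costimulatory genes was not tested.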

How the data were processed

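Gene expression was measured on 8 arrays hybridised with biotin-labelled cDNA from 200 ng of total RNA per sample, per the labels' protocols. The deposited values are log2 levels that the authors made with RMA and Partek (no version stated), per the submitters' processing notes; the array's genome build is not given in the sources used here. Because RMA equalises the distribution of every array, a shift shared by most genes would not show. Groups came from the sample titles. Of 41034 clusters, the platform annotation gave a single symbol to 23521, several to 1814 and none to 15699. Of the single-symbol clusters, 23328 matched a RefSeq gene by their identifier, and no symbol changed. Each gene is its brightest single-symbol cluster, and a gene was tested if it reached the array's 40th percentile on at least 2 arrays.

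A model of 4 group means was fitted to all 8 arrays with limma 3.58.1 in R 4.3.3 (4 residual and 3.363 prior degrees of freedom), with Benjamini-Hochberg adjustment over 13508 genes and a threshold of 0.05. Precision is limited by the number of arrays. On simulated data of 13508 genes, the averaged subset effect found 87 of 100 genes given a change of 1 (log2). It found 97 of 100 given a change of 2, with 12 false calls among 13308. The subset effect in CCR2-/- cells recovered 70 and 94, with 7 false calls. The simulated errors were normal, independent between arrays and drawn from the fitted prior variance, without a shift shared by same-numbered arrays. These counts check the fit and do not give its power on the real arrays. Same-numbered arrays deviated together in all 6 pairs of groups (r = 0.11 to 0.53 across genes), but the main fit holds no term for the replicate number. A fit with it as a block is given as an alternative where it changes a call, except that marker genes are read only averaged over genotypes. Within genotypes, the block also called Foxp3, Ikzf2 and Gpr83 in wild-type cells. In CCR2-/- cells it also called Foxp3, Ikzf2, Trat1, Ighm and Cd68. Averaged over genotypes, 409 genes were called by the main fit and 758 with the block. No label says what the number marks, though Xist and Kdm5d separate it. The spread behind the main p-values thus includes any difference that goes with the number. Other alternatives were array weights, median centring, a second quantile normalization, moderation with a trend and robust prior, stricter or no filtering, the mean of a gene's clusters, the compared arrays alone and leaving out each array.

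Named are all 10 costimulatory genes and their partners, the called genes or else the nearest to the threshold of 3 lists (other receptors, other ligands, signalling), and the 5 genes nearest in pattern to each called member. Ighm and the arrays' identity checks come from the marker lists. The members and lists were chosen with earlier results of these data known.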

Additional observations from a re-analysis of the deposited data

Results flagged for a closer look

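For 3 genes, CCR2-/- and wild-type cells differed one way on both same-numbered pairs of arrays in CD45RBhigh cells and the other way on both in CD45RBlow cells. The genes were picked for these signs, which 9.12% of all genes tested had. The interaction, the subset difference in CCR2-/- minus that in wild-type cells, was -0.49 for Tnfrsf1b, -0.50 for Tnfsf11 and -0.13 for Tnfrsf18 on the log2 scale, with an adjusted p of 1.0 for each by limma. For Tnfrsf1b, the CCR2-/- minus wild-type differences were -0.12 and -0.15 in CD45RBlow cells and 0.44 and 0.25 in CD45RBhigh cells. For Tnfsf11 they were -0.50 and -0.23 in CD45RBlow cells and 0.02 and 0.25 in CD45RBhigh cells. For Tnfrsf18 they were -0.01 and -0.04 in CD45RBlow cells and 0.08 and 0.12 in CD45RBhigh cells. Groups of 2 arrays are too small for a check for outlying arrays.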

How the results depend on the processing

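The 3 calls averaged over genotypes stood under the replicate block and each setting that kept all arrays, except that Tnfsf8 was lost with no filter (adjusted p = 0.0519). Leaving out 1 array left 0 to 3 of the 10 genes called, with 0 when the array dropped was wild-type CD45RBlow replicate 1, and 1 when it was either wild-type CD45RBhigh array, the second wild-type CD45RBlow array or the first CCR2-/- CD45RBlow array, against 39 to 524 of all genes (409 with all arrays and 758 with the replicate block). In CCR2-/- cells, where 1 gene was called, array weights left 0 and leave-one-out fits 0 to 1. There, 45 genes were called in all, and 7 with array weights, 69 with trend and robust moderation, 83 with median centring, 196 with the replicate block and 1 to 84 with an array left out. In wild-type cells, where 0 of the 10 were called, the replicate block and array weights each called 1 (Tnfrsf1b, adjusted p = 0.0453 and 0.0268) and leave-one-out fits 0 to 1. There, 12 genes were called in all, and 24 with median centring, 31 with trend and robust moderation, 104 with the replicate block, 116 with array weights and 1 to 54 with an array left out. The replicate block called no genotype difference and no interaction. Over 17 alternatives, 1135 values of the 10 genes kept their side of the threshold, 21 lost the call, 4 gained one and 0 reversed. Of 1091 values not called in either fit, 58 changed sign. The cause of these changes was not tested, and the leave-one-out fits also held fewer arrays.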
